A study of Mus musculus with 45 samples.

Results

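Tight junctions are belts of strands that seal neighbouring epithelial cells to each other near their apical surface. Claudins, which cross the membrane several times, build the strands and set which ions pass between the cells, so that some act as barriers and others as pores. Occludin and junctional adhesion molecules sit in the same belt, and cytoplasmic scaffold proteins tie it to actin. In the colon, barrier claudins keep luminal contents out and limit the back-leak of absorbed sodium. The 10 genes described here were taken by symbol from the RNA-seq count table, out of 24918 gene entries, and all 10 passed the filter on low counts that left 12961 entries for testing. They comprise the barrier claudins Cldn3, Cldn4, Cldn7 and Cldn8, the cation pore claudins Cldn2 and Cldn15, Cldn23, a claudin of the differentiated colonic surface, and Ocln, Tjp1 and F11r, which encode occludin, the scaffold ZO-1 and the adhesion molecule JAM-A.

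RNA came from the epithelium that EDTA released from the whole colon of male C57BL/6 mice (C57BL/6J in the study's methods), which were 6 weeks old when their diets began. Control mice ate a low-fat diet (10% fat) for 20 weeks and obese mice a high-fat diet (60% fat) for as long. Formerly obese mice were moved from the high-fat to the low-fat diet after week 15 and kept on it for the last 5 weeks, and lard supplied the fat in both diets. Each group held 5 mice, each with 1 library. The study also profiled DNA methylation by bisulfite sequencing in the same design. Libraries held 15230391 to 22762095 counts, with the deepest in formerly obese mouse 3. The 9 epithelial markers checked (such as Epcam, Cdh1 and Krt20) summed to at least 14530 CPM (counts per 1000000 of the scaled library total) in every library, whereas 6 smooth muscle markers summed to at most 2.70 CPM, 6 endothelial markers to at most 9.08 CPM and 8 immune markers to at most 53.0 CPM. The 6 fibroblast markers summed to 2.34 to 10.9 CPM in control mice, 6.78 to 17.4 in obese mice and 6.01 to 30.6 in formerly obese mice. The 4 of them that were tested lay above 0 in all 3 comparisons (median log2 differences 0.66 and 1.09 for obese and formerly obese against control mice and 0.30 between them), and edgeR and DESeq2 each called 0 of the 4 in any comparison, with 2 (Col3a1 and Dcn) at an unadjusted p under 0.05 in formerly obese against control mice with either tool. Of all tested genes 16.7% had an unadjusted edgeR p under 0.05 in formerly obese against control mice. The part of fibroblast RNA in any result here was not tested. Markers of position and maturity along the colon gave the most calls between formerly obese and control mice. The posterior Hox genes had summed CPM of 484 to 606 among control, of 424 to 550 among obese and of 351 to 455 among formerly obese mice, and the 8 surface colonocyte markers of 5992 to 11820, 6679 to 11030 and 9097 to 14230. Summed CPM weigh each gene by its level. In control mice Car1 averaged 4103 CPM of a mean surface sum of 7797, and Hoxb13 353 CPM of a mean Hox sum of 531. In obese against control, formerly obese against control and formerly obese against obese mice, edgeR called 1, 7 and 2 of the 9 posterior Hox genes lower, 1, 4 and 3 of the 8 surface markers higher and 1, 5 and 0 of 9 tested small intestinal genes higher. Of all tested genes 1.58%, 3.72% and 2.65% were called in these comparisons, in either direction. In obese against control mice the surface markers were split, with 4 above and 4 below 0. In bulk epithelium of this kind, fewer cells of a type and less RNA per cell cannot be told apart.

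Levels between genes were compared as CPM per kilobase of annotated exon. In control mice Cldn7, a claudin found both in the belt and along the lateral membrane, stood highest at 606 ± 24.9 CPM per kilobase (SD, n = 5), followed by Cldn3 at 331 ± 34.5. F11r at 152 ± 8.33 and Cldn15 at 143 ± 9.72 came next, and these neighbours overlapped between mice. All other neighbours in the order had ranges that did not overlap in control mice. Cldn2 reached 97.9 ± 9.66, Cldn8 65.1 ± 13.1, Ocln 42.4 ± 1.63, Tjp1 30.9 ± 2.31, Cldn23 25.5 ± 1.16 and Cldn4 11.99 ± 2.80 CPM per kilobase. Against the 12940 tested entries with a known exon length, Cldn7 lay at the 99.4th percentile of level and Cldn4 at the 56.0th. The order placed the sealing claudins Cldn7 and Cldn3 at the top and the sealing claudin Cldn4 at the bottom, with both pore claudins between them.

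**Figure D1:**
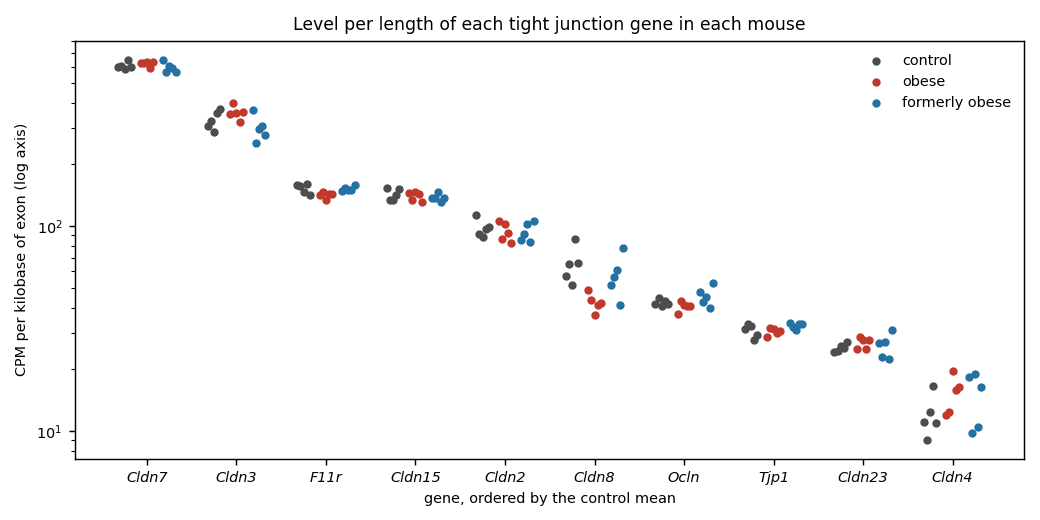
Level of each gene in CPM per kilobase of exon (log axis) in each of the 15 mice, with genes ordered by the control mean and points coloured by group. Cldn7 lies highest, between 565 and 648 in all mice, and Cldn4 lowest, between 9.07 and 19.5, and the obese points of Cldn8 lie below all its control points.

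The table held 25 entries named as claudins, 18 of them outside the set. Of these, 15 had fewer than 10 counts in every library, 5 of them none at all, and 3 (Cldn12, Cldn14 and Cldn25) passed the filter. Cldn12, singled out after its values were seen, had 131.9 ± 7.79, 126.9 ± 5.08 and 114.9 ± 3.81 CPM in control, obese and formerly obese mice (SD, n = 5), and its log2 difference of -0.20 in formerly obese against control mice had an edgeR adjusted p of 0.0301 and missed the fold cutoff. As a share of the summed level per length of the 7 claudins described here, Cldn7 made up 47.4 ± 1.51% in control mice, 47.9 ± 0.78% in obese mice and 48.5 ± 1.27% in formerly obese mice (SD, n = 5 each). Cldn3 made up 25.8 ± 1.56%, 27.5 ± 1.56% and 24.5 ± 2.19%, and the pore claudin Cldn15 11.2 ± 0.72%, 10.8 ± 0.648% and 11.3 ± 0.666%. Cldn8 made up 5.06 ± 0.764% in control mice, 3.28 ± 0.325% in obese mice and 4.71 ± 1.16% in formerly obese mice. The highest Cldn8 share among obese mice, 3.72%, was below the lowest among control mice, 4.37%, while the formerly obese mice spanned 3.46 to 6.44%.

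Counts were compared with edgeR's quasi-likelihood test, fitted over all tested entries and all 15 libraries. Calls followed the study's own cutoffs, which ask for a fold change over 1.2 either way, a p-value under 0.01 and, after Benjamini-Hochberg adjustment, a p under 0.25. Obese mice had lower Cldn8 than control mice, and none of the other 9 genes was called. That is 1 of 10 genes called lower, where 0.864% of all tested genes were called lower and 1.58% were called in either direction. The median log2 difference of the 10 genes was -0.022, against 0.0002 over all tested genes. The ranges of control and obese mice did not overlap for 1 of the 10 genes, Cldn8, against 2.47% of all tested genes, 1.26% with obese mice lower. An unadjusted p under 0.05 was reached by 2 of the 10 (Cldn8 and F11r), against 10.9% of all tested genes. Between formerly obese and control mice 0 of the 10 genes were called, where 3.72% of all tested genes were called, and 0 had an unadjusted edgeR p under 0.05, against 16.7%, and DESeq2 called 0 of the 10 as well. Their ranges overlapped for all 10 genes, whereas 3.62% of all tested genes did not overlap, and the median log2 difference was -0.018, against -0.0006 over all tested genes. Between formerly obese and obese mice 1 of the 10 genes was called, again Cldn8, which was higher after the return to the low-fat diet, where 1.23% of all tested genes were called higher and 2.65% in either direction. An unadjusted p under 0.05 was reached by 4 of the 10 (Cldn3, Cldn8, Ocln and F11r), against 13.4% of all tested genes. The median log2 difference there was -0.011, against 0.0023. The comparisons share groups and are not independent of each other.

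**Figure D2:**
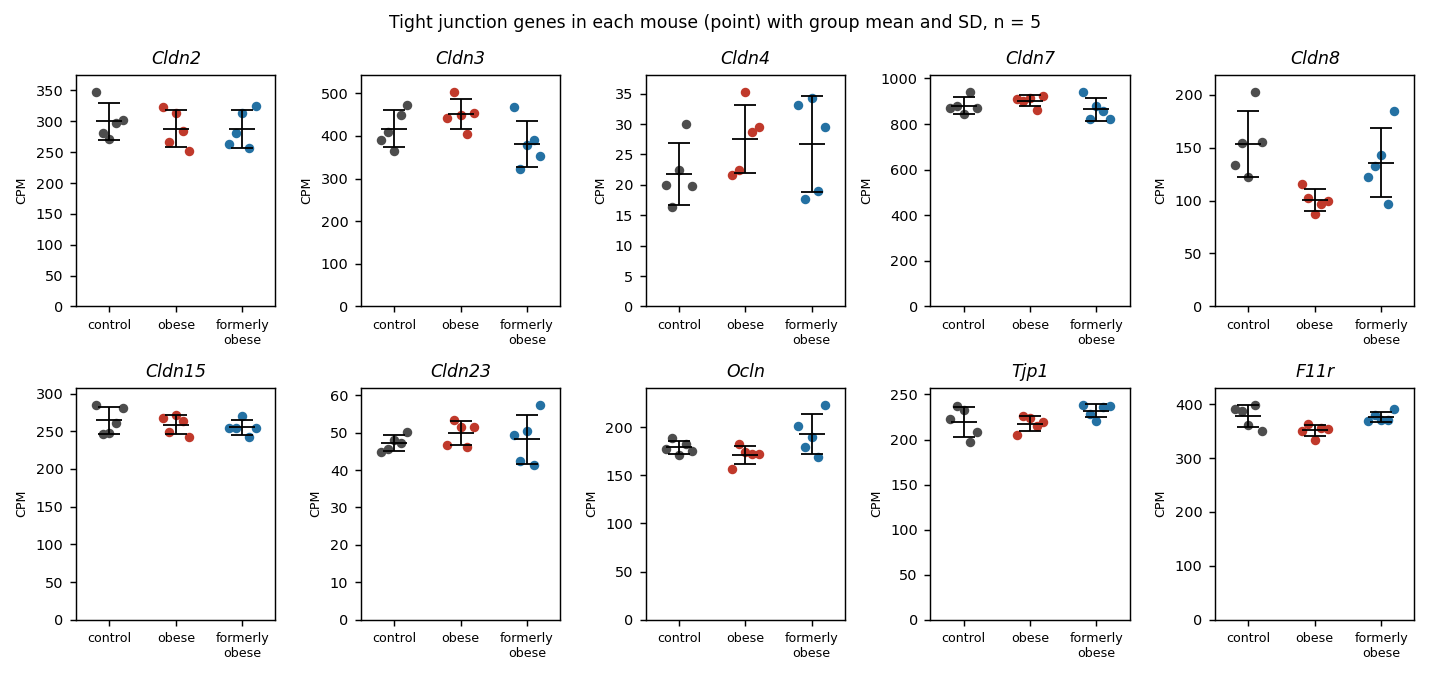
CPM of each gene in each mouse (points) by group, with the group mean and SD (bars, n = 5), and each vertical axis starting at 0. Cldn8 is the gene whose 5 obese mice, at 87.1 to 115 CPM, lie below all 5 control mice, at 122 to 203 CPM.

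Cldn8, the barrier claudin that limits sodium back-leak in the distal nephron and colon, is a gene of 1 exon on the minus strand (mm10, chr16:88560826-88563183). Its CPM was 133.8, 154.3, 121.8, 202.8 and 155.3 in control mice 1 to 5. It was 115.2, 102.9, 87.1, 97.1 and 99.4 in obese mice 1 to 5. It was 122.2, 132.8, 143.1, 97.0 and 184.6 in formerly obese mice 1 to 5. All obese mice were below all control mice, whereas in the formerly obese group 1 mouse lay within the obese range and the other 4 above it. The group means were 153.6 ± 31.0, 100.3 ± 10.2 and 135.9 ± 32.2 CPM (SD, n = 5).

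By the fit, Cldn8 in obese mice was at 0.653 of the control level, with a 95% interval of 0.528 to 0.808 (log2 difference -0.61, SE 0.15, edgeR adjusted p = 0.122). The adjusted p passed the study's cutoff of 0.25 and not one of 0.05. With DESeq2, the tool of the study, the log2 difference was -0.62 with an adjusted p of 0.0477, and with only the libraries of both groups in the edgeR fit the adjusted p was 0.0491. The call was lost without control mouse 2 (edgeR adjusted p = 0.27), obese mouse 3 (adjusted p = 0.328) or obese mouse 5 (adjusted p = 0.276), with log2 differences of -0.61, -0.57 and -0.61. Over all alternatives the log2 difference stayed between -0.69 and -0.49. The weakest value came without control mouse 4, the highest of the control mice, where the call was kept (edgeR adjusted p = 0.146). The strongest came without control mouse 3, the lowest of the control mice.

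In formerly obese mice Cldn8 was 1.35 times the obese level (95% interval 1.10 to 1.68, log2 difference 0.44, SE 0.15, edgeR adjusted p = 0.186). The call was kept under 8 of 20 alternatives and was lost with DESeq2 (adjusted p = 0.186, unadjusted p over the cutoff of 0.01), with the trend over GC content removed (edgeR adjusted p = 0.283) and without any 1 of obese mice 2, 3, 4 and 5 or formerly obese mice 2, 3 and 5. Without formerly obese mouse 5, the mouse with the highest value of its group, the log2 difference was 0.30 (edgeR adjusted p = 0.44). Against control mice the formerly obese group differed by -0.18 on the log2 scale, with an interval from -0.48 to 0.13 (edgeR adjusted p = 0.575). That interval held 0.

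Values that could move with Cldn8 are given beside it. Over the 15 mice, Pearson's r between log2 CPM of Cldn8 and the log2 summed CPM of 5 marker lists was 0.201 for surface colonocytes, 0.302 for stem and proliferating cells, -0.187 for goblet cells, 0.1 for posterior Hox genes and -0.029 for small intestinal genes. All 5 had permutation p-values of 0.275 or more (two-sided, adjusted p of 0.844 or more over 50 pairs of a gene and a list). Among the Hox genes, Hoxd12 was lower in obese mice (log2 difference -0.76, SE 0.22, edgeR adjusted p = 0.184, kept under 12 of 20 alternatives and lost with the replicate numbers as a block), and the part of colonic position in the Cldn8 difference was not tested.

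The other barrier claudins gave no call. Cldn3 had 389.9, 410.4, 364.8, 449.8 and 472.1 CPM in control mice, 443.2, 503.8, 448.0, 405.1 and 454.9 CPM in obese mice and 466.8, 321.9, 377.9, 390.2 and 352.5 CPM in formerly obese mice. Obese and formerly obese mice overlapped through formerly obese mouse 1, the highest of its group. The log2 difference between formerly obese and obese mice was -0.24 (95% interval -0.43 to -0.05, edgeR adjusted p = 0.238), which missed both the p-value and the fold cutoff. It became a call without formerly obese mouse 1 (log2 difference -0.32, edgeR adjusted p = 0.0748) and without obese mouse 4 (-0.28, adjusted p = 0.227). With the trend over GC content removed, it was -0.073 (edgeR adjusted p = 0.708), and Cldn3 is the gene of the set with the highest GC content (62.7% of its exons). Cldn3 (mm10, chr5:134986214-134987476) overlaps Wbscr25 on the opposite strand, and the strand setting of the counting is not given in the sources used here, so reads of both genes may not have been kept apart.

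Cldn7 (mm10, chr11:69964779-69967886) had 845 to 942 CPM in control mice, 861 to 921 in obese mice and 820 to 942 in formerly obese mice, with means of 881 ± 36.2, 902 ± 23.7 and 865 ± 49.7 (SD, n = 5). The log2 difference was 0.03 in obese against control mice (95% interval -0.06 to 0.13) and -0.03 in formerly obese against control mice (-0.12 to 0.07). The first interval is a fold of 0.957 to 1.10.

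Cldn4, whose gene lies 39280 bp from Cldn3 on chromosome 5, had the lowest counts and the widest spread. Its CPM was 19.9, 16.4, 22.4, 30.0 and 19.9 in control mice, 21.6, 22.4, 35.3, 28.8 and 29.5 in obese mice, and 33.2, 17.7, 34.3, 19.0 and 29.5 in formerly obese mice. The formerly obese mice were split between 2 low and 3 high values, and all groups overlapped. The log2 difference was 0.34 in obese against control mice (95% interval -0.07 to 0.75, edgeR adjusted p = 0.548) and 0.30 in formerly obese against control mice (-0.11 to 0.71, adjusted p = 0.461). As a fold, the interval in obese mice ran from 0.952 to 1.69. The coefficient of variation within groups averaged 24.4% for Cldn4 and 17.99% for Cldn8, both above the 98th percentile of tested genes within a factor of 2 of their levels, while those of F11r and Cldn7 were 3.70% and 4.16%.

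Cldn4 was the gene of the set that moved most with the marker lists across mice. Its log2 CPM followed the summed surface colonocyte markers with Pearson's r of 0.719 (Spearman's rho 0.646, n = 15, permutation p = 0.00368 and 0.011). The r was 0.635 without the 2 mice farthest from the median of Cldn4, and 0.893 for deviations from the group means. It ran against the posterior Hox genes, with r of -0.681 (rho -0.618, permutation p = 0.0056 and 0.0168, r -0.578 without the 2 farthest mice). Over the 50 pairs of a gene and a list the adjusted permutation p for r was 0.0933 for each of these, so neither passed 0.05. Cldn4 also rose with the small intestinal genes (r 0.697, permutation p = 0.00506, adjusted p = 0.0933). With the stem and proliferating markers its r was positive as well (0.608, permutation p = 0.0161, adjusted p = 0.201), and with goblet markers it was 0.104. The surface, Hox and small intestinal sums lean on their most abundant genes (Car1, Hoxb13, and Mep1a with Fabp2). These r therefore do not describe each marker of a list. The part of cell maturity or position in the spread of Cldn4 was not tested.

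The pore claudins did not separate the groups. Cldn2, which forms a channel for cations and water and in many epithelia is found in crypts, had 300.1 ± 29.6 CPM in control mice, 288.1 ± 30.3 in obese mice and 287.9 ± 30.5 in formerly obese mice (SD, n = 5). The individual mice ran from 271 to 348, from 253 to 324 and from 256 to 326 CPM. Its log2 difference in obese against control mice was -0.06 (95% interval -0.24 to 0.12, edgeR adjusted p = 0.854).

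Cldn15, the main sodium pore of the small intestine, had 264.6 CPM in control mice, 259.0 in obese mice and 255.3 in formerly obese mice, with ranges of 247 to 285, 242 to 272 and 243 to 270 CPM. The log2 difference in obese against control mice was -0.03 (95% interval -0.14 to 0.07), and in formerly obese against control mice -0.05 (-0.16 to 0.05). Cldn23 had 44.8 to 50.2 CPM in control mice, 46.3 to 53.3 in obese mice and 41.4 to 57.4 in formerly obese mice, and its log2 difference in obese against control mice was 0.08 (95% interval -0.08 to 0.24).

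Of the genes outside the claudin family, F11r had the narrowest spread. JAM-A, its product, joins neighbouring cells through its extracellular domains and recruits polarity proteins. F11r had 391.8, 388.2, 362.1, 398.6 and 350.8 CPM in control mice, 351.2, 363.2, 334.1, 355.3 and 354.5 CPM in obese mice and 368.4, 379.6, 370.2, 370.5 and 391.7 CPM in formerly obese mice. All formerly obese mice were above all obese mice, whereas control and obese mice overlapped. Ranges did not overlap for this 1 gene of the 10, against 3.38% of all tested genes in this comparison, 1.49% with formerly obese mice higher. The log2 difference was -0.11 in obese against control mice (95% interval -0.20 to -0.02, edgeR adjusted p = 0.375) and 0.10 in formerly obese against obese mice (0.01 to 0.19, edgeR adjusted p = 0.332). Both were below the fold cutoff and neither passed the adjusted cutoff.

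Ocln, the gene of occludin, had 176.8, 188.7, 171.3, 182.8 and 174.9 CPM in control mice, 156.5, 182.3, 174.5, 171.8 and 171.7 CPM in obese mice and 200.9, 179.7, 189.4, 169.0 and 223.0 CPM in formerly obese mice. The formerly obese mice held the highest 3 values of the 15, and the groups overlapped. The log2 difference between formerly obese and obese mice was 0.17 (95% interval 0.03 to 0.30, edgeR adjusted p = 0.24), below the fold cutoff. Ocln overlaps the entry LOC115488221 on the opposite strand, with the same limit on strand as for Cldn3. Tjp1 had 197 to 237 CPM in control mice, 205 to 226 in obese mice and 221 to 238 in formerly obese mice. Its log2 difference was -0.01 in obese against control mice (95% interval -0.12 to 0.09) and 0.09 in formerly obese against obese mice (-0.01 to 0.20, edgeR adjusted p = 0.442).

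**Figure D3:**
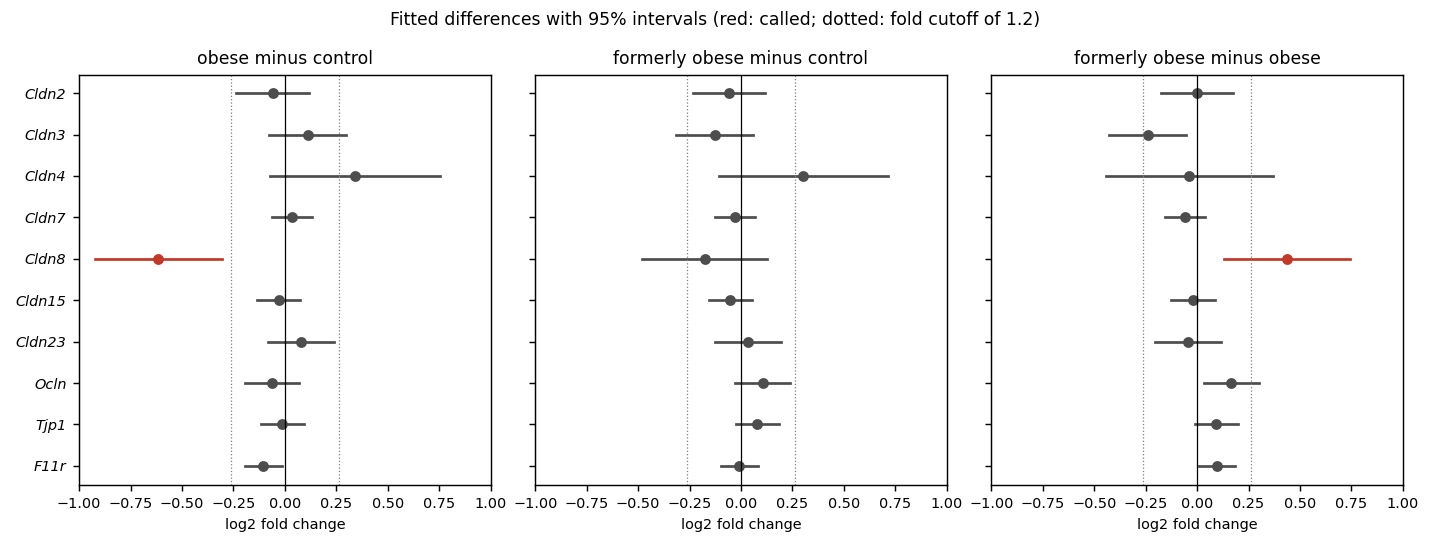
Fitted log2 fold change of each gene in the 3 comparisons, with 95% intervals as lines, called genes in red and the fold cutoff of 1.2 as dotted lines. Cldn8 is the gene called in obese against control mice (-0.61) and in formerly obese against obese mice (0.44), and no gene is called in formerly obese against control mice.

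Whole-genome bisulfite sequencing gave another readout at the same genes. The deposited list holds 8199 differentially methylated regions (DMRs) between obese and control mice, 4123 that gained methylation (hyper) and 4076 that lost it (hypo), each with a direction and no value per mouse. Tjp1 and F11r had a DMR in the gene body, and with the body widened by 5 kb they were still the only ones, 2 of 10 genes against 16.5% of all tested genes. All 3 DMRs in these bodies were hypo. Tjp1 spans 75080 bp and held 2 DMRs, as did 4.83% of tested genes within a factor of 2 of its length (2 or more). F11r spans 27033 bp and held 1, and 13.6% of genes of like length held at least 1. The sequences of these regions are shown with 40 bases on each side, since they are the positions at which the deposited list places a methylation difference inside a tight junction gene. They run 5′ to 3′ on the plus strand of mm10 (GRCm38, from RefSeq), and capitals mark the CpGs inside each DMR.
Tjp1 coding exon, chr7:65302932-65303042: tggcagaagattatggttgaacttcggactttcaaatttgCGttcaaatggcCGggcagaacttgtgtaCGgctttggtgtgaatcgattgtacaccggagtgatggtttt
Tjp1 intron, chr7:65342144-65342230: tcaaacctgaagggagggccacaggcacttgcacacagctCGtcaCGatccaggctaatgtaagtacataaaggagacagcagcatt
F11r intron, chr1:171459686-171459801: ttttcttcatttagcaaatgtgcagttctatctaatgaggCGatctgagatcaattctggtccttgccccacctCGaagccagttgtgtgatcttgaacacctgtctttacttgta
The first Tjp1 DMR (chr7:65302972-65303002) holds 3 CpGs and lies within a coding exon of Tjp1, which is transcribed from the minus strand. The second (chr7:65342184-65342190) holds 2 CpGs, 427 bp from the nearest exon. The F11r DMR (chr1:171459726-171459761) holds 2 CpGs, 602 bp from the nearest exon. Neither gene was called in obese against control mice, with log2 differences of -0.01 for Tjp1 and -0.11 for F11r.

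Within 100 kb of their bodies 7 of the 10 genes had a DMR, against 62.4% of all tested genes, in all 14 distinct DMRs, 9 hypo and 5 hyper. Cldn2, Cldn15 and Cldn8, the gene called lower in obese mice, had none. The hypo DMR nearest to Cldn3 lies 23685 bp downstream at Abhd11, and the same region lies 64227 bp upstream of Cldn4. A hyper DMR 57303 bp upstream of F11r lies within the body of Nectin4 (chr1:171380243-171380258), named Pvrl4 in the count table. The bisulfite PCR amplicons read 1 stretch within 100 kb of the set, 12 CpGs at Vgf, 54918 bp from Cldn15. Their mean methylation was 25.2 ± 2.10% in control mice, 25.3 ± 2.05% in obese mice and 25.9 ± 1.17% in formerly obese mice (SD, n = 5), and all groups overlapped. The study describes deep sequencing of these amplicons, and the table gives no read depth per CpG, so no counting interval was set.

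**Figure D4:**
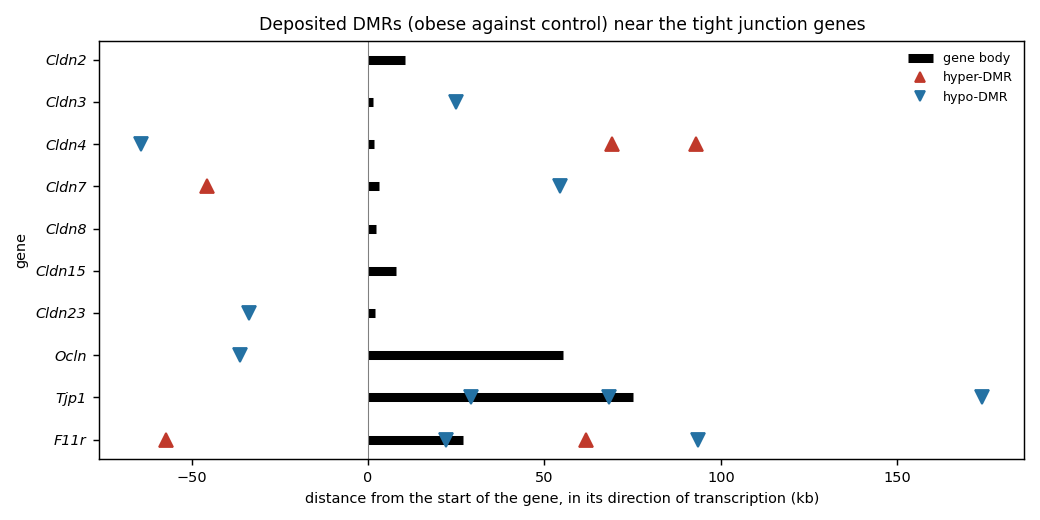
Deposited DMRs near each gene, by distance in kb from the start of the gene in its direction of transcription, with black bars for gene bodies, upward red triangles for hyper and downward blue triangles for hypo DMRs. The 3 DMRs inside gene bodies, 2 in Tjp1 and 1 in F11r, are all hypo, and the rows of Cldn2, Cldn8 and Cldn15 hold none.

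How the 10 genes varied together across mice was described by Pearson's r of log2 CPM over the 15 libraries, which share depth and cell mixture within a mouse. Over the 45 pairs the median r was 0.084, with 26 pairs above 0 and a range from -0.505 (Cldn15 and Tjp1) to 0.824. For 3 pairs the r passed an adjusted permutation p of 0.05 over the 45. The barrier claudins Cldn3 and Cldn7 had r of 0.824 (rho 0.729, two-sided permutation p = 0.00024 and 0.00302, adjusted p = 0.00742 and 0.0679). Their r was 0.813 without the 2 mice farthest from the median of Cldn3, and 0.787 for deviations from the group means. Cldn3 and Cldn7 have the highest exon GC content of the set (62.7% and 57.0%), and r with the GC trend removed was not computed. The pore claudins Cldn2 and Cldn15 had r of 0.816 (rho 0.839, permutation p = 0.00033 and 0.00019, adjusted p = 0.00742 and 0.00855), with r of 0.858 without the 2 farthest mice and 0.811 for the deviations. These genes lie on chromosomes X and 5. Cldn3 and its neighbour Cldn4 had r of 0.236 (rho 0.193, permutation p = 0.395 and 0.487).

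Cldn8 paired with F11r, with r of 0.738 (rho 0.593, permutation p = 0.00185 and 0.0223, adjusted p = 0.0277 and 0.201). That relation was weaker without the 2 mice farthest from the median of Cldn8 (r 0.573) and for deviations from the group means (r 0.515). The permutations ignored the groups, so the p-values take in the group differences of both genes. No p was computed for the deviations. Outside the set, the tested genes most like Cldn8 among those with a mean of at least 50 counts were Gstt1, a glutathione transferase (r 0.922), Echs1, an enzyme of mitochondrial fatty acid oxidation (r 0.906), and Nipsnap1, a mitochondrial protein (r 0.906). Of 11036 such genes, 1032 had r of 0.5 or more with Cldn8. Gstt1 had 33.5 ± 5.68, 22.9 ± 3.39 and 29.3 ± 6.34 CPM in control, obese and formerly obese mice (SD, n = 5), and was called lower in obese against control mice (log2 difference -0.55, edgeR adjusted p = 0.142). It was picked for its r with Cldn8 over the same mice, group differences included, so that call is not a separate result.

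**Figure D5:**
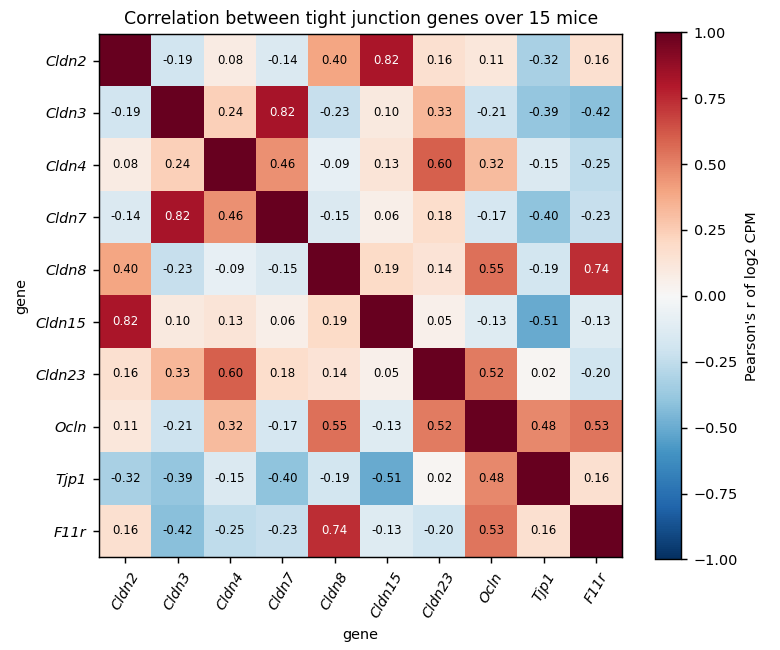
Pearson's r of log2 CPM between each pair of the 10 genes over the 15 mice, with the scale from -1 to 1 and the diagonal being each gene with itself. Cldn3 with Cldn7 and Cldn2 with Cldn15 are the highest at 0.82 each, and the median over the 45 pairs is 0.084.

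Other junction genes were read from lists. Of 9 tested membrane proteins of the belt besides those above (such as tricellulin, Marveld2), 0 were called in any comparison with edgeR or DESeq2. In obese against control, formerly obese against control and formerly obese against obese mice, 1, 4 and 2 of the 9 had an unadjusted edgeR p under 0.05. The shares of all tested genes were 10.9%, 16.7% and 13.4%. With DESeq2, 1, 5 and 3 of the 9 had an unadjusted p under 0.05. Of 23 tested scaffold and plaque genes 1 was called, Amotl1, an angiomotin family member, at 7.76 ± 1.29 CPM in control and 5.23 ± 0.679 CPM in obese mice (SD, n = 5, log2 difference -0.57, edgeR adjusted p = 0.244). That call was kept under 8 of 20 alternatives. Of 22 tested regulators 1 was called, Grhl3, a transcription factor of epithelial differentiation, at 6 to 33 counts per library. Its log2 difference was -0.90 in obese against control mice (edgeR adjusted p = 0.212, kept under 9 of 19 alternatives) and -0.9998 in formerly obese against control mice (adjusted p = 0.0624, kept under 18 of 19).

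Among 11 adherens junction genes, Pvrl4 (Nectin4), a cell adhesion molecule, was the one called. It had 6.79, 7.47, 8.62, 6.89 and 7.46 CPM in control mice, 4.72, 6.97, 5.13, 5.86 and 4.86 CPM in obese mice and 4.66, 4.89, 5.43, 5.37 and 6.11 CPM in formerly obese mice. All formerly obese mice were below all control mice, where 3.62% of all tested genes did not overlap in either direction, and 1 obese mouse lay within the control range. The log2 difference was -0.43 in obese mice (edgeR adjusted p = 0.178, kept under 12 of 20 alternatives) and -0.49 in formerly obese mice (adjusted p = 0.0411, kept under 20 of 20). Of 9 desmosome genes 1 was called, Ppl (periplakin), higher in formerly obese than in obese mice (log2 difference 0.26, edgeR adjusted p = 0.172, kept under 11 of 20). Of all tested genes 1.58%, 3.72% and 2.65% were called in the 3 comparisons. The regulators Prss8 (log2 difference -0.25) and Rock2 (0.25) and the desmosome genes Dsc2 (0.21) and Dsg2 (0.20) missed the fold cutoff in formerly obese against control mice. Their edgeR adjusted p-values were 0.0233, 0.0233, 0.0268 and 0.0322, and they were singled out after their values were seen. In the same order, their log2 differences in obese against control mice were -0.22, 0.10, 0.20 and 0.02 (edgeR adjusted p = 0.0941, 0.495, 0.101 and 0.945).

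The medians of these 5 lists and the sodium list that follows lay between -0.0022 and 0.0785 on the log2 scale in obese against control mice, between -0.0148 and 0.0824 in formerly obese against control mice and between -0.0575 and 0.058 in formerly obese against obese mice, where the medians of all tested genes were 0.0002, -0.0006 and 0.0023. The list of other claudins lay outside these ranges, with medians of -0.0892, -0.1816 and -0.0924. It held 2 tested genes, Cldn12 and Cldn14, of which 0 were called.

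Claudin-8 works in colonic sodium uptake beside the epithelial sodium channel, so 12 genes of that channel and of its steroid response were read as well. The channel subunits Scnn1a, Scnn1b and Scnn1g were not called in any comparison, nor was Nr3c2, the mineralocorticoid receptor. Sgk1, a kinase that raises the number of these channels at the surface, had 134, 152, 130, 183 and 179 CPM in control mice, 185, 204, 260, 308 and 223 CPM in obese mice and 232, 217, 202, 160 and 218 CPM in formerly obese mice. All obese mice were above all control mice, with the lowest obese mouse at 184.5 CPM and the highest control mouse at 183.4 CPM. Ranges of obese and control mice did not overlap for 2.47% of all tested genes, in either direction. For Sgk1, 1 formerly obese mouse lay within the control range. Sgk1 rose by 0.60 on the log2 scale in obese mice (SE 0.13, edgeR adjusted p = 0.0918) and by 0.40 in formerly obese mice (adjusted p = 0.124), both against control mice. The first call was kept under 18 of 20 alternatives and the second under 11 of 20.

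The steroid response genes Fkbp5 and Tsc22d3 were called higher in formerly obese than in control mice (log2 differences 0.45 and 0.29, edgeR adjusted p = 0.035 and 0.114), the first under 20 of 20 alternatives and the second under 14 of 20. Fkbp5 was also called higher in formerly obese than in obese mice (0.32, edgeR adjusted p = 0.177, kept under 13 of 20). Per1, a clock gene listed with the same steroid response, went the other way there (-0.43, edgeR adjusted p = 0.192, kept under 11 of 20). Against control mice Per1 was not called, with log2 differences of 0.41 in obese and -0.03 in formerly obese mice.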

How the data were processed

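The authors prepared stranded mRNA libraries, mapped paired reads to mm10 with TopHat2 2.0.4 and deposited a table of raw HTSeq counts, gene by mouse, with the strand mode and annotation release not given in the sources used here. For bisulfite PCR amplicons the deposited values are methylation levels of single CpGs (a fraction for every mouse), printed here as percent. From whole-genome bisulfite sequencing the authors deposited DMRs (Bismark, Rao-Scott likelihood ratio test) with a position and a direction. DESeq2 tables of the authors' own fold changes and p-values were not used.

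Groups and replicate numbers came from the sample titles and diets. The 12961 entries that passed filterByExpr were scaled by TMM and fitted in edgeR 4.0.16 (R 4.3.3) with the group as the single term over all 15 libraries, and p-values were adjusted over all of them. DESeq2 1.42.0 was an alternative, beside other scalings, filters, a GC correction, a replicate block and leaving out each mouse. CPM use TMM-scaled totals, log2 CPM a prior count of 2, and lengths RefSeq exons (GRCm38). In simulated data, changes were planted in the obese group alone. Obese against control mice then gave 169 of 200 changed genes among 12896 recovered, with 28 false calls among unchanged genes. Formerly obese against control mice, a comparison with no planted change, gave 0 calls in the same data. All replicate pairs differed by more than sampling noise (lowest ratio of chi-square to its degrees of freedom 5.73). Correlations used 100000 permutations, a test added after the data were seen. Mice were permuted without regard to group, so these p-values take in differences between groups. The 10 genes were all named, with the called genes of 7 junction and sodium lists, and the 3 genes most like a called member. Cldn12, Prss8, Rock2, Dsc2 and Dsg2 were added after their values were seen. The genes and lists were chosen with earlier results of these data known. The labels name no sequencing batch.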

Additional observations from a re-analysis of the deposited data

How the results depend on the processing

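Over 600 recomputed log2 differences of the 10 genes, 558 kept their direction and their side of the cutoffs, 16 lost a call (all Cldn8), 2 gained one (Cldn3, -0.28 and -0.32) and 24 changed sign, all in uncalled genes. The latter were Cldn2 in formerly obese against obese mice (0.0007 with DESeq2 size factors, 0.0064 with no filter on low counts, 0.0011 with DESeq2), Cldn4 in the same comparison and Cldn7 in formerly obese against control mice (0.0061 and 0.018 with the GC trend removed), and genes that changed sign when 1 mouse was left out. With each mouse left out in turn, the ranges were -0.0487 to 0.0469 for Cldn2, -0.1504 to 0.077 for Cldn4 and -0.1154 to 0.0049 for Cldn23 in formerly obese against obese mice, -0.0359 to 0.0863 for Cldn23 and -0.0331 to 0.011 for F11r in formerly obese against control mice, and -0.0492 to 0.0152 for Tjp1 in obese against control mice. With an edgeR adjusted p under 0.05 over all 15 libraries as the rule, 0 of the 10 genes were called in obese against control or in formerly obese against obese mice (Cldn8 in obese against control mice had 0.0477 with DESeq2 and 0.0491 with only both groups in the fit), and 16, 282 and 25 of all genes in the 3 comparisons, against 205, 482 and 343. The GC correction moved Cldn3 in formerly obese against obese mice from -0.24 to -0.0729. In that comparison, DESeq2 and the GC correction each called 0 of the 10. Leaving out single mice gave 0 to 1 of the 10 genes and 40 to 331 of all genes in obese against control, 0 and 362 to 660 in formerly obese against control, and 0 to 2 and 167 to 400 in formerly obese against obese mice. The cause was not tested beyond the fewer samples in each fit. The share of Cldn7 in the claudins was 49.98% with the longest transcript as gene length, against 47.4%. Scalings moved no median of all genes by over 0.1 on the log2 scale.

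Replicate numbers were not used to pair the mice in the main fit. Correlations between same-numbered mice ran from -0.231 to 0.333. Without differently numbered mice as a reference, they cannot decide whether the numbers pair the mice. With the numbers as a block, 252, 537 and 346 of all genes were called, and Cldn8 in formerly obese against obese mice lost its call (log2 0.43, edgeR adjusted p = 0.224, unadjusted p over 0.01), leaving 0 of the 10, while Cldn2 there was 0.002. Block and GC correction together, chosen after the data were seen, left 0 of the 10 (Cldn8 0.40) and gave 0.0181 for Cldn7 against control mice.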
